A study of Mus musculus with 8 samples.

Results

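Cultured cADSC, the plastic-adherent stromal cells grown from mouse cardiac adipose tissue, were compared between pools labelled P2Y2 KO and WT pools that had received no UTP. The comparison used 4 of the 8 RNA-sequencing libraries of the study, 2 per genotype, and its members were the genes above 0.5 CPM (counts per 1000000 counts) in at least 2 of the 8 libraries, which were 17529 of the 52636 genes counted. All 4 pools were kept for 7 days in DMEM with 10% fetal bovine serum and antibiotics, and the other 4 libraries came from cultures of both genotypes given UTP at 100 µM each day. The mice were males and females of 12 to 16 weeks, the labels give C57BL/6J for both genotypes, and the methods describe the knockout line, a germline knockout, as CD1/C57BL/6J. Every library held RNA from 2 cultures, so n = 2 counts pools and the p-values measure the spread between pools. That spread was estimated over all 8 libraries, the UTP-treated ones included. The deposited gene counts had been scaled to nearly the same total in each library (20009605 to 20014110 in the 4 untreated pools), where 3 counts correspond to 0.15 CPM. In such bulk samples fewer cells of a type and less RNA per cell cannot be told apart.

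P2Y2 is a G-protein-coupled receptor for extracellular ATP and UTP. It acts through Gq, phospholipase C and calcium release, and agonists of the receptor induce immediate early genes and change inflammatory and proliferative programs in many cell types. Cells release nucleotides in culture without added agonist, so the untreated comparison asks how cADSC of the genotypes differ before any agonist is given.

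The targeted gene was read in every pool. P2ry2 (ENSMUSG00000032860, GRCm38 chr7:100996568-101012866, minus strand) had 362 and 347 scaled counts in the WT pools and 280 and 311 in the KO-labelled pools, that is 17.7 ± 0.53 CPM and 14.8 ± 1.1 CPM (SD, n = 2). The pools did not overlap, yet the difference was small (log2 fold change -0.26 ± 0.10 SE) and was not called, with an edgeR quasi-likelihood p of 0.0925 after Benjamini-Hochberg adjustment over all genes tested. Counts per gene do not show whether part of the transcript was missing, so the genotype rests on the labels and "KO" below means the pools labelled P2Y2 KO. All adjusted p-values below come from the same edgeR test.

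The pools also differed in sex-linked transcripts. Xist, the RNA of the inactive X chromosome, was at 452 and 249 CPM in the WT pools and at 0.10 and 215 CPM in the KO pools, while the Y-linked helicase gene Ddx3y was at 0 and 22.3 CPM and at 90.8 and 54.4 CPM. The first WT pool had no Y-linked reads for Ddx3y and the first KO pool almost no Xist, so only the second pool of each genotype showed both sexes. The main results are therefore also given for these 2 second pools alone where the count or call changed by much, with the 4 UTP-treated libraries, 1 of which also had almost no Xist, kept in the fit to supply the spread (below, the mixed-sex pools, an alternative chosen after seeing the data). Over all genes the 2 pools of a genotype were alike, with a Pearson correlation across genes of 0.994 for WT and 0.995 for KO on the log2 scale.

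Of the 17529 genes tested, 3628 differed between the genotypes at an adjusted p of 0.05 (20.7%), with 1842 higher (10.5%) and 1786 lower (10.2%) in the KO pools. All 3628 had pools that did not overlap, against 10839 of all tested genes (61.8%). A change of at least 2-fold was reached by 376 of the higher and 165 of the lower genes, 541 in all. The 3628 calls take their spread from all 8 libraries. With the 4 untreated libraries fitted alone, 1239 genes were called (7.07%). In the mixed-sex pools 1515 of 17335 genes were called (8.74%), and 1194 of the 3628 were among them in the same direction, while 3615 of the 3628 kept their sign. Without the first KO pool 720 genes were called, and 633 of the 3628 were called whichever of the 8 libraries was left out.

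The gene programs were unevenly spread over these calls. Most complement and MHC class I genes were higher in the KO pools, and lysosomal, acute inflammatory and cholesterol genes were more often higher than lower, whereas cell cycle, immediate early, TGF-beta and BMP, imprinted and epithelial genes were more often lower than higher. The plot of gene lists gives these counts beside the share of all genes. Among the other lists described below, some had shares called near or below the 20.7% of all genes. Examples were macrophage identity (18.8%), interferon-stimulated genes (16.7%) and collagens (24.3%). Others had shares above it, such as MHC class II (50%), glutathione and oxidative stress (50%) and adipogenic genes (43.5%). The lists were drawn up with earlier results of these data known, so their counts describe the comparison and are not tests of the lists.

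**Figure D1:**
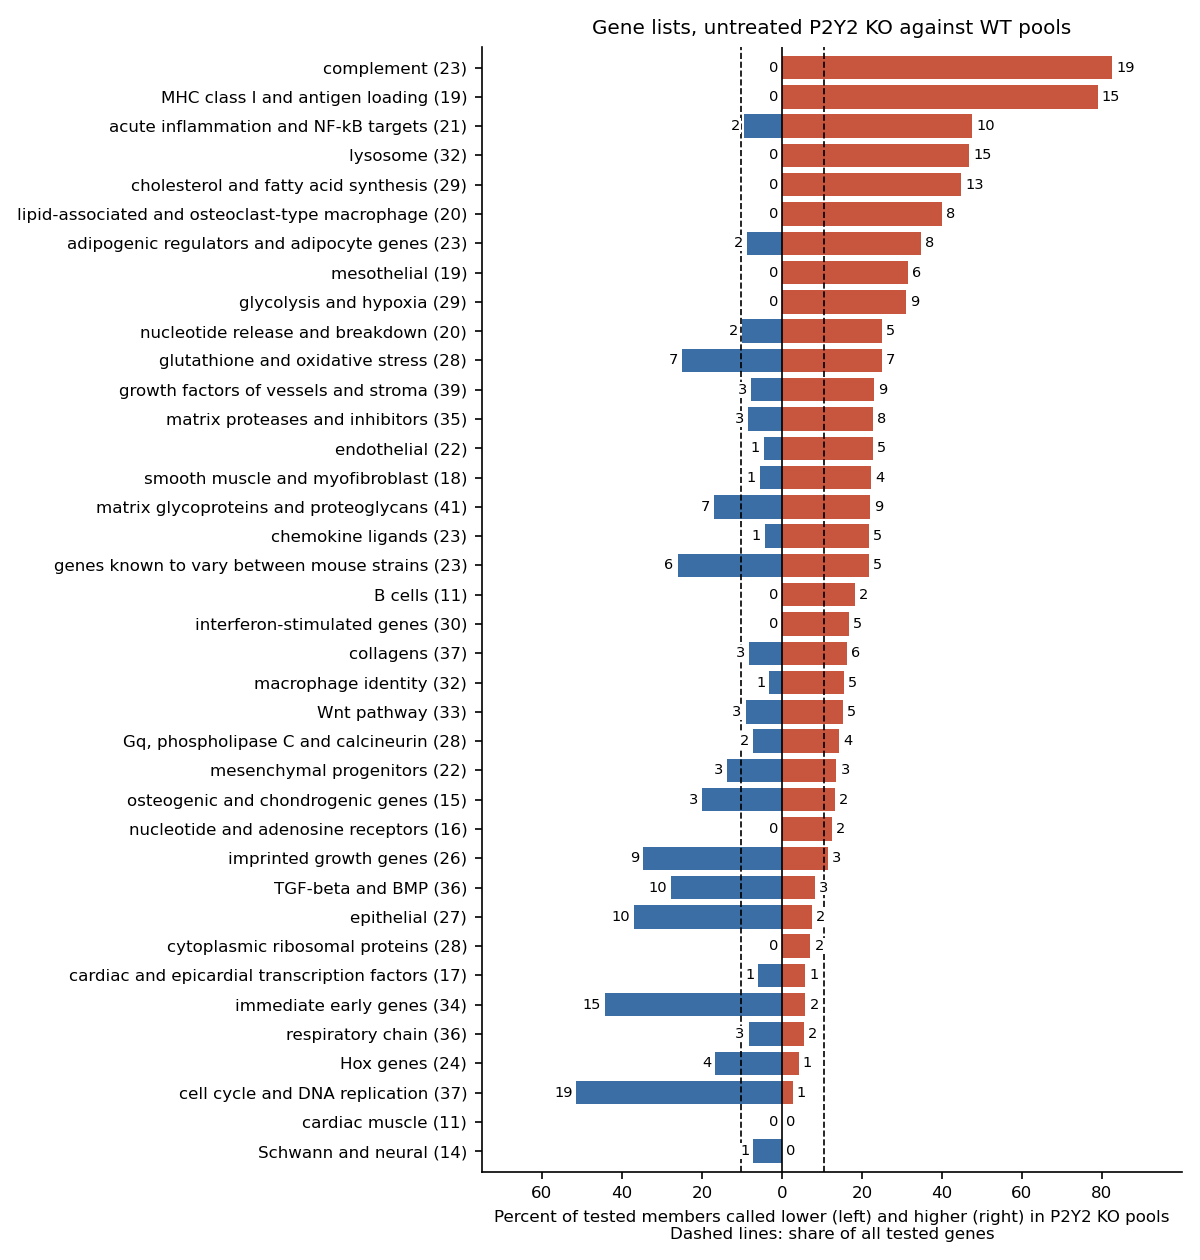
Percent of the tested members of each gene list that were called lower (left, blue) and higher (right, red) in untreated P2Y2 KO pools against WT pools, for lists with at least 10 tested members (number in brackets), with the count at each bar end. The dashed lines mark the shares of all tested genes, 10.2% lower and 10.5% higher. Complement (19 of 23) and MHC class I (15 of 19) reach furthest to the right, and cell cycle (19 of 37) furthest to the left.

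Some receptor and Gq signaling genes were called, at shares near or below the 20.7% of all genes tested. Of 16 tested nucleotide and adenosine receptors 2 were higher and none lower (12.5% called). Of 28 genes of Gq, phospholipase C and calcineurin signaling 4 were higher and 2 lower (21.4% called). Adora2a, a Gs-coupled adenosine receptor, was at 3.35 and 2.5 CPM in WT and at 7 and 5.8 CPM in KO pools (log2 fold change 1.12 ± 0.20, adjusted p = 0.00882). P2rx4, an ATP-gated channel, was at 54.5 and 46.4 CPM in WT and at 66.6 and 62.3 CPM in KO pools (0.35, adjusted p = 0.0213). Both receptors were higher in each KO pool than in either WT pool. P2ry6, the UDP receptor, was at 34.4 and 24.1 CPM in WT and at 41 and 34.3 CPM in KO pools and was not called (0.36, adjusted p = 0.15). Among genes that release or degrade nucleotides, 5 of 20 were higher and 2 lower, against 1 and 1 in the mixed-sex pools. Entpd2, an ectonucleotidase that hydrolyzes ATP, was higher (4.4 and 6 CPM in WT, 11.2 and 10.7 CPM in KO, log2 fold change 1.08), and Panx1, a channel that releases ATP, was lower (19.2 and 17.7 CPM against 13.7 and 13.5 CPM, -0.44). Gnaq, the Gq alpha subunit, was lower by a small margin (-0.32, adjusted p = 0.048) and was not called in the mixed-sex pools (adjusted p = 0.445).

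The immediate early genes, which growth factor and Gq-coupled receptors switch on within minutes through ERK and calcium, were lower in the KO pools where they were called, with 2 exceptions. Of 34 such genes tested 15 were lower and 2 higher, with a median log2 fold change of -0.46 against 0.02 over all genes, a list added after Egr1 and Fos had been seen. Egr1, a zinc finger transcription factor, was at 202 and 218 CPM in WT pools (210 ± 10.7, SD) and at 55.2 and 48.1 CPM in KO pools (51.6 ± 5.01), a log2 fold change of -2.03 ± 0.10 (adjusted p = 6.82e-05). Fos, an AP-1 subunit, was at 48 and 72.5 CPM in WT and at 21.4 and 16.9 CPM in KO pools (-1.65 ± 0.19, adjusted p = 0.00268). Dusp1, the phosphatase that switches MAP kinases off, was at 116 and 134 CPM in WT and at 60.6 and 64.9 CPM in KO pools (-0.998 ± 0.084, adjusted p = 0.000828). In all of these genes both KO pools lay well below both WT pools, and Egr1, Fos and Dusp1 were also called in the mixed-sex pools (adjusted p = 0.00112, 0.00179 and 0.00341). Ier2, Egr2 and Egr3 fell by 1.19, 1.21 and 1.69 on the log2 scale. The AP-1 genes did not move as a family, since Jund was higher (0.62 ± 0.11) and Jun (-0.08) and Junb (-0.01) were not called, nor was Myc (-0.19). In the mixed-sex pools 10 of the list were lower and 2 higher, and without the first KO pool 7 were lower.

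**Figure D2:**
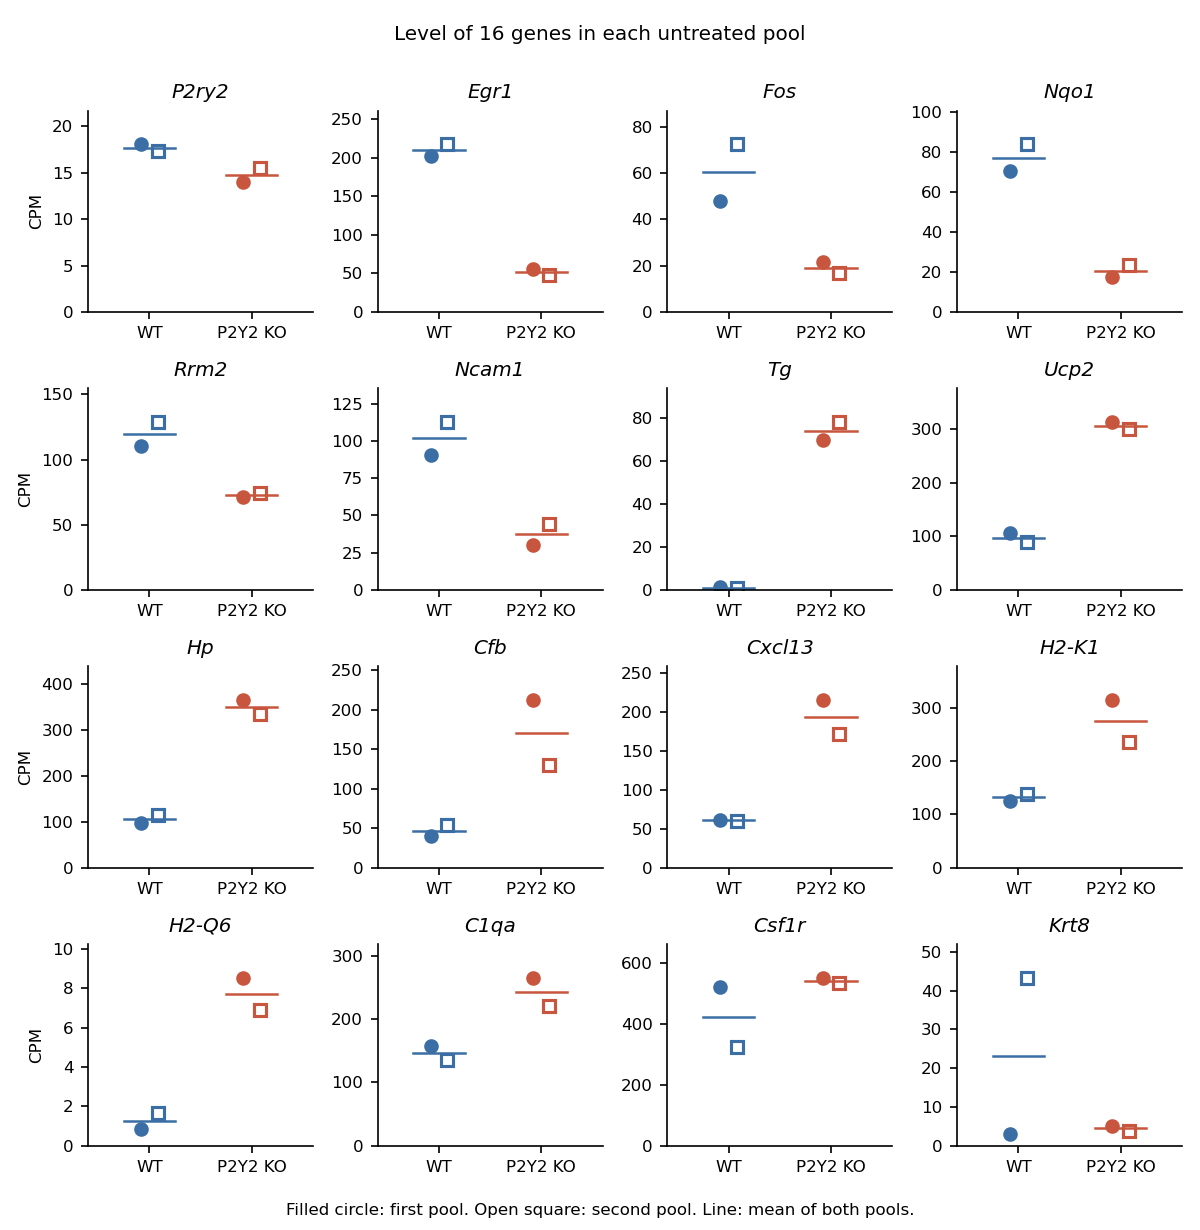
Level in CPM of 16 genes in the 4 untreated pools, with the first pool of each genotype as a filled circle, the second as an open square and the mean of both as a line. In Egr1, Fos, Nqo1, Rrm2 and Ncam1 both KO pools lie below both WT pools, in Tg, Ucp2, Hp, Cfb, Cxcl13, H2-K1, H2-Q6 and C1qa above, while the WT pools of Csf1r and Krt8 lie far apart.

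Genes of the cell cycle and DNA replication were often lower. Of 37 tested 19 were lower and 1 was higher, the median log2 fold change was -0.35, and their summed level was 4554 and 4603 CPM in WT pools against 3698 and 3636 CPM in KO pools. Rrm2, a ribonucleotide reductase subunit that supplies DNA precursors, was at 111 and 129 CPM in WT and at 71.2 and 74.4 CPM in KO pools (-0.72 ± 0.07, adjusted p = 0.00159). Tpx2, a spindle assembly factor, was at 137 and 158 CPM in WT and at 92.7 and 86.4 CPM in KO pools (-0.72 ± 0.08, adjusted p = 0.00251). The KO pools were the 2 lowest for both genes. Top2a, Cdk1 and Ccnb1, which act in chromosome separation and entry into mitosis, fell by 0.57, 0.60 and 0.61. The decline did not take in every proliferation marker: Pcna had the same mean of 117 CPM in both genotypes (0.00, adjusted p = 0.971) and Mki67 was not called (-0.22, adjusted p = 0.141). The 1 higher gene was Cdkn2a, which encodes the cell cycle inhibitor p16 and a second protein, at 11 and 12.9 CPM in WT and 21.2 and 17.5 CPM in KO pools (0.69 ± 0.11, adjusted p = 0.00738). Cdkn2a was not called in the mixed-sex pools (adjusted p = 0.0511), where 17 of the list were lower and Ccnd1 was higher (0.36), and without the first KO pool 8 were lower.

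MHC class I molecules show peptides from inside the cell to T cells, and most of their genes were higher in the KO pools. Of 19 tested genes for class I chains, their loading and their regulator, 15 were higher and none lower (median log2 fold change 0.83). The regulator Nlrc5 drives class I promoters through a set of short elements close to the start site, beside a kappa B element that binds NF-kappa B and, in some genes, an interferon response element. The 4 called class I chains whose RefSeq promoters (GRCm38.p6, 250 bases before to 50 after the start) held the kappa B motif GGGGATTCC are printed because they are the members with the motif, each from shortly before that motif to shortly after the nearest downstream ATTGG, the reverse of the CCAAT box. Capitals mark these 2 motifs:
H2-K1: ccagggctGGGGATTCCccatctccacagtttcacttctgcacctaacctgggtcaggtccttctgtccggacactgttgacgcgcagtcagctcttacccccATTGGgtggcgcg
H2-D1: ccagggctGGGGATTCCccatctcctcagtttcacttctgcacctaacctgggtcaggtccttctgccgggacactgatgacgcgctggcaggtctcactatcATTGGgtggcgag
H2-Q6: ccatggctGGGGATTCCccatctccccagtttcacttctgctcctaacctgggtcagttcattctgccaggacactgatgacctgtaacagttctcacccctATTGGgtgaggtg
H2-Q7: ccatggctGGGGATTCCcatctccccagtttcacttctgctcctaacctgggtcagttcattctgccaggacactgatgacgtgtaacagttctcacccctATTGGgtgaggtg
They lie on chromosome 17 at chr17:34000351-34000466 (minus strand), chr17:35262915-35263030, chr17:35424669-35424783 and chr17:35439014-35439127 (plus strand). GGGGATTCC begins 111, 171, 173 and 133 bases before the annotated start in H2-K1, H2-D1, H2-Q6 and H2-Q7.

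Searched on both strands, GGGGATTCC was present in these 4 of the 11 called class I genes that had a promoter (36.4%) and in 82 of 32851 promoters of all genes (0.25%). CCAAT was present in 10 of the 11 (90.9%) and in 37.4% of all promoters, and a pair of GAAA repeats with 2 bases of any kind between them, the core of an interferon response element, in 2 of the 11 (B2m and H2-T23, 18.2%) and in 3.44% of all promoters. Of the 3 tested class I genes that were not called and had a promoter, H2-Q10, H2-T22 and Tap1, none held GGGGATTCC, 2 held CCAAT and 1 held the GAAA pair. These matches describe the letters and are not binding sites. Only these exact patterns were searched, so a promoter without a match can still hold another form of an element.

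H2-K1, a classical class I chain, was at 124 and 139 CPM in WT pools (132 ± 10.2, SD) and at 315 and 235 CPM in KO pools (275 ± 56.2), a log2 fold change of 1.06 ± 0.13 (adjusted p = 0.00326). H2-D1, the other classical chain, was at 214 and 220 CPM in WT and at 471 and 363 CPM in KO pools (0.94 ± 0.11, adjusted p = 0.00279). B2m, the light chain that all class I molecules share, was at 280 and 250 CPM in WT and at 400 and 357 CPM in KO pools (0.51 ± 0.09, adjusted p = 0.0101). The first KO pool was the highest and both KO pools exceeded both WT pools in all of them. The non-classical chains differed by more: H2-Q6 was at 0.85 and 1.65 CPM in WT and at 8.54 and 6.9 CPM in KO pools (2.62 ± 0.35, adjusted p = 0.00404), and H2-Q7 changed alike (2.49). The H2-Q genes are near copies of each other, so the assignment of reads among them is uncertain. The immunoproteasome subunits Psmb8 (0.83) and Psmb9 (0.76), the peptide loading factors Tapbp (0.69) and Tap2 (0.47), and Nlrc5 (7.5 and 5.45 CPM in WT, 13.8 and 15.1 CPM in KO, 1.16 ± 0.23, adjusted p = 0.012) were higher too. Tap1, H2-T22, H2-T24 and H2-Q10 were not called (0.48, 0.35, -0.25 and 1.77). In the mixed-sex pools 7 of the 19 were higher and none lower, with H2-K1, H2-D1, B2m and H2-Q6 among them, and without the first KO pool 5 were higher.

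MHC class II and interferon-stimulated genes moved less clearly. Of 8 tested class II genes 4 were higher, and none of the 8 was called in the mixed-sex pools. Cd74, the invariant chain of class II, was at 13.5 and 9.15 CPM in WT and at 25.5 and 16.1 CPM in KO pools (0.88 ± 0.26, adjusted p = 0.045), and Ciita, the class II regulator, was not called (0.35). Of 30 interferon-stimulated genes 5 were higher (2 in the mixed-sex pools) and none lower, although 29 had a log2 fold change above 0 and the median was 0.93. Zbp1, a sensor of Z-form nucleic acids, was at 2.8 and 3.8 CPM in WT and at 12.2 and 16.9 CPM in KO pools (2.14 ± 0.50, adjusted p = 0.0223). Bst2, which tethers budding viruses, was at 24.5 and 28.9 CPM in WT and at 65.8 and 67.6 CPM in KO pools (1.32 ± 0.27, adjusted p = 0.0139). Neither Zbp1 nor Bst2 was called in the mixed-sex pools (adjusted p = 0.112 and 0.102). Isg15, a ubiquitin-like protein, was not called (6.15 and 6.35 CPM in WT, 12.9 and 24.8 CPM in KO, 1.59 ± 0.73, adjusted p = 0.152), its KO pools being 2 unequal values above 2 close WT values. Ifit1 (1.37) and Irf7 (1.44) were not called either. Stat2 (1.11), Ifi27l2a (1.47) and Ifitm3 (0.57) were the other 3 called members.

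Complement was the list with the largest share of higher genes in the plot of gene lists. Of 23 tested members 19 were higher and none lower (median log2 fold change 0.92), and 18 were higher in the mixed-sex pools, 13 without the first KO pool. C3, the central component on which all activation routes converge, was at 902 and 1048 CPM in WT pools (975 ± 103, SD) and at 2887 and 1924 CPM in KO pools (2405 ± 681), a log2 fold change of 1.30 ± 0.18 (adjusted p = 0.00411). Cfb, factor B of the alternative route, was at 39.4 and 54.4 CPM in WT and at 212 and 129 CPM in KO pools (1.86 ± 0.25, adjusted p = 0.00412). C4b, of the classical and lectin routes, was at 90.8 and 139 CPM in WT and at 427 and 383 CPM in KO pools (1.82 ± 0.17, adjusted p = 0.00123). In C3, Cfb and C4b the first KO pool was the highest and the lower KO pool still exceeded the higher WT pool. C4a, a near copy of C4b, was higher as well (2.27), with uncertain assignment of reads between the copies. C1qa, C1qb and C1qc, the chains of the recognition molecule C1q made mainly by macrophages, were higher (0.73, 0.91 and 0.92), with C1qa at 158 and 135 CPM in WT and 266 and 222 CPM in KO pools. Members that fibroblasts also make rose as well: C1s1 (0.65), the inhibitor gene Serping1 (0.81), C2 (1.06), C6 (2.05) and C7 (1.96). Cfd, factor D or adipsin, an adipocyte product, was at 14.8 and 13.4 CPM in WT and at 32.1 and 93.7 CPM in KO pools (2.16 ± 0.59, adjusted p = 0.0366). Cd59a (-0.16), Cfi (0.02) and the receptor genes C3ar1 (0.21) and C5ar1 (0.42) were not called.

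Acute inflammatory and chemokine genes were split, with more members higher than lower. Of 21 acute inflammation and NF-kappa B target genes 10 were higher and 2 lower, and of 23 chemokine ligands 5 were higher and 1 lower. In the mixed-sex pools these counts were 6 and 2, and 3 and 1. Hp, haptoglobin, an acute phase protein that binds free hemoglobin, was at 97.8 and 116 CPM in WT pools and at 366 and 335 CPM in KO pools (1.71 ± 0.09, adjusted p = 7.71e-05). Saa3, an acute phase serum amyloid, was at 46.8 and 64.4 CPM in WT and at 191 and 135 CPM in KO pools (1.55 ± 0.20, adjusted p = 0.00353). Il33, an alarmin cytokine of stromal cells, was at 16.2 and 29.4 CPM in WT and at 67.9 and 61.8 CPM in KO pools (1.51 ± 0.22, adjusted p = 0.00514). Each of these genes had both KO pools more than 2-fold above the WT mean. Among chemokines, Cxcl13, which draws B cells, was at 61.8 and 60.7 CPM in WT and at 216 and 173 CPM in KO pools (1.66 ± 0.13, adjusted p = 0.000696), and Cxcl12, which holds CXCR4-bearing cells in stromal niches, rose by 0.50. The lower members were Lif (-0.71) and Ptgs2, the inducible cyclooxygenase that makes prostaglandins, at 27.9 and 40.9 CPM in WT and 15.7 and 18.1 CPM in KO pools (-1.02 ± 0.17, adjusted p = 0.00758). Ppbp, a platelet and myeloid chemokine, was the lower chemokine, and its 88 scaled counts over both WT pools against 3 over both KO pools put the ratio at 29.3 (counting interval 9.71 to 145.0), though the WT pools were unequal at 0.40 and 4 CPM.

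Macrophage genes need their pools shown, because the WT pools were unequal. The 32 macrophage identity genes summed to 4965 and 3432 CPM in WT and to 6192 and 5300 CPM in KO pools, and 5 were called higher and 1 lower. Csf1r, the receptor that keeps macrophages alive, was at 520 and 325 CPM in WT and at 552 and 533 CPM in KO pools and was not called (0.36 ± 0.18, adjusted p = 0.199). Adgre1, which encodes F4/80, was at 200 and 121 CPM in WT and at 223 and 219 CPM in KO pools (0.45, adjusted p = 0.131). The first WT pool was close to the KO pools in both genes and the second well below. In the mixed-sex pools, which leave out that first WT pool, 21 of the 32 were higher and 1 lower, Csf1r among the higher (0.74, adjusted p = 0.0106), and without the second WT pool 5 were higher and 3 lower. The 5 higher members were the 3 C1q chains, the lysozyme gene Lyz2 (0.58) and Marco, a scavenger receptor, at 11.9 and 8.6 CPM in WT and 32.6 and 18.8 CPM in KO pools (1.32 ± 0.25, adjusted p = 0.0109). Cd5l, a scavenger protein of tissue macrophages outside the list, was at 13.2 and 12 CPM in WT and at 41.2 and 56.9 CPM in KO pools (1.95 ± 0.29, adjusted p = 0.00514). Folr2, a folate receptor of resident macrophages, was the lower member, at 133 and 64.7 CPM in WT and 47.2 and 36.3 CPM in KO pools (-1.25 ± 0.29, adjusted p = 0.0223). Its gene lies 844 kb from the start of P2ry2, and it was not called between the UTP-treated pools (-0.20, adjusted p = 0.712). Since the MHC class I, complement and lysosomal lists hold genes that macrophages express strongly, the part of macrophage content in those results was not tested.

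Calls among lysosomal and lipid-handling genes were higher ones, though most members were not called. Of 32 lysosomal genes 15 were higher and none lower (median 0.25), and they summed to 13070 and 11800 CPM in WT and to 16700 and 15430 CPM in KO pools. Ctsd, cathepsin D, the main aspartic protease of lysosomes, was at 2098 and 1864 CPM in WT and at 2891 and 2672 CPM in KO pools (0.49 ± 0.08, adjusted p = 0.00671), and Grn (0.49), Gaa (0.53) and the lysosomal regulator Tfeb (0.65) were higher too. Of 20 genes of lipid-associated and osteoclast-type macrophages 8 were higher and none lower. Apoe, the apolipoprotein that exports lipid from macrophages and stromal cells, was at 244 and 308 CPM in WT and at 514 and 491 CPM in KO pools (0.86 ± 0.09, adjusted p = 0.00204). In Ctsd and Apoe both KO pools were above both WT pools, and Acp5 (1.11), an acid phosphatase, and Spp1 (0.79), osteopontin, were higher as well. Of 29 cholesterol and fatty acid synthesis genes 13 were higher and none lower. Insig1, the sterol-regulated brake on that route, was at 70.1 and 58.2 CPM in WT and at 94.8 and 95.4 CPM in KO pools (0.57 ± 0.10, adjusted p = 0.0082), and Lss (0.52), which closes the sterol ring, was higher. Without the first KO pool the lysosomal count was 3 and the cholesterol count 5.

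**Figure D3:**
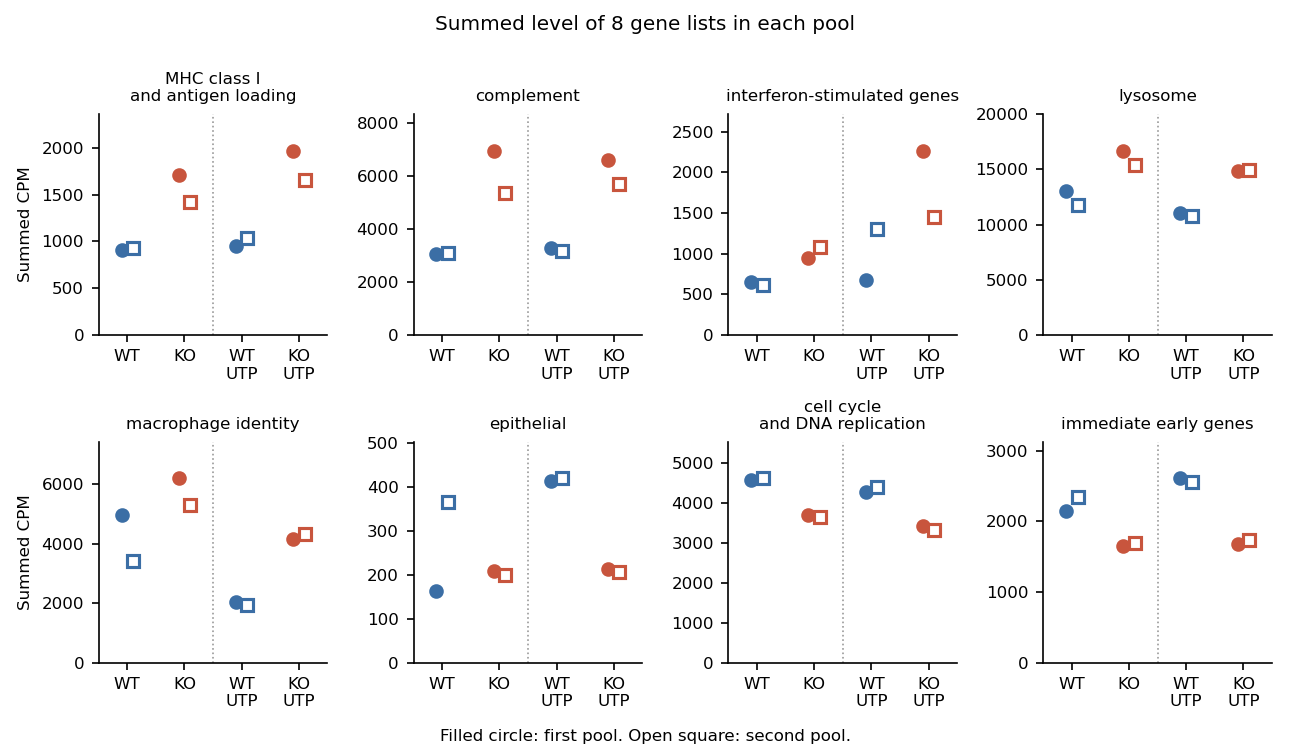
Summed CPM of 8 gene lists in all 8 pools, with the first pool of each group as a filled circle and the second as an open square, WT in blue and P2Y2 KO in red, untreated pools left of the dotted line and UTP-treated pools right of it. The KO pools lie above the WT pools for MHC class I, complement and lysosome and below them for cell cycle and immediate early genes with and without UTP, while the untreated WT pools are unequal for macrophage (4965 and 3432 CPM) and epithelial genes (161.6 and 364.2 CPM).

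Stromal markers were abundant in every pool, with Pdgfra at 536 and 512 CPM in WT and 667 and 627 CPM in KO pools and Eng, which encodes CD105, at 147 to 192 CPM, and Thy1, which encodes CD90, was not called (-0.28). Of 11 tested B cell genes 2, Ms4a1 and Cd79a, were higher. The median log2 fold change of the list was 2.07, against 0.875 in the mixed-sex pools. All 14 list members, tested or not, summed to 106.3 and 99.75 CPM in WT and 276.4 and 130.2 CPM in KO pools, so the first KO pool stood apart. Cd79a, a subunit of the B cell receptor, was at 0.50 and 0.30 CPM in WT and at 2.2 and 1.2 CPM in KO pools. Of 5 tested T and NK cell genes none was called by edgeR, at an unadjusted p of 0.05 or by DESeq2. Of 11 cardiac muscle genes edgeR and DESeq2 called none, and 1 had an unadjusted p under 0.05. Of 22 endothelial genes 5 were higher and 1 lower (27.3% called, against 20.7% of all genes tested). Their median log2 fold change was 0.57, against 0.418 in the mixed-sex pools. Plvap, a protein of fenestrated vessels, was higher, at 2.65 and 3.5 CPM in WT and 8.54 and 7.6 CPM in KO pools (1.39). Tek was lower, at 8.3 and 7.9 CPM in WT and 5.35 and 5.6 CPM in KO pools (-0.57, adjusted p = 0.0284). The endothelial marker Kdr was not called (-0.43, adjusted p = 0.15). Its pools overlapped, at 20.3 and 32.7 CPM in WT and 18.6 and 20.6 CPM in KO pools.

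Epithelial genes had the lowest median of the lists in the plot, -2.13, or -1.86 with the 3 genes at 0 in a group set to their bound. Among the untreated pools the second WT pool carried them. Of 27 tested 10 were lower and 2 higher. All 30 list members, tested or not, summed to 161.6 and 364.2 CPM in WT against 209.1 and 200 CPM in KO pools, so the first WT pool was the lowest of all. Both UTP-treated WT pools were high, with sums of 413.5 and 418.8 CPM against 212.6 and 206.3 CPM in UTP-treated KO pools. Between these UTP-treated pools 18 of the 27 were lower and none higher. Krt8, a keratin of simple epithelia and mesothelium, was at 3 and 43.3 CPM in WT and at 5.15 and 3.8 CPM in KO pools and was not called (-2.37, adjusted p = 0.101). Krt19, another epithelial marker, went the other way, at 3.95 and 8.8 CPM in WT and 13 and 12 CPM in KO pools. With UTP it was at 7.3 and 6.6 CPM in WT and 12.1 and 11 CPM in KO pools. Krt17, a keratin of stratified epithelia, was at 0.90 and 8.55 CPM in WT and at 0 in both KO pools, at least 31.5-fold lower with 3 counts per library as the floor. Krt4, outside the list, was even between the WT pools, at 1.3 and 0.999 CPM in WT and 0 in both KO pools, at least 7.67-fold lower. The call count was 4 lower and 4 higher without the second WT pool and 17 lower and 2 higher without the first. Mesothelial genes, which line the pericardium, went the other way at first sight (6 of 19 higher, none lower), but Msln was at 17.9 and 60.5 CPM in WT and 55.5 and 53.4 CPM in KO pools, and in the mixed-sex pools 2 were higher, 3 lower and the median was -0.06.

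The stromal program differed in its secreted regulators and matrix. Of 36 TGF-beta and BMP genes 10 were lower and 3 higher, against 5 lower and none higher in the mixed-sex pools. Inhba, which forms activin A, was at 273 and 242 CPM in WT and at 80 and 124 CPM in KO pools (-1.34 ± 0.23, adjusted p = 0.00785). Fst, the secreted antagonist of activin, was at 174 and 171 CPM in WT and at 79.3 and 104 CPM in KO pools (-0.91 ± 0.14, adjusted p = 0.00558). Ligand and antagonist were thus both lower, and so was the BMP receptor gene Bmpr1b (-1.31). Of 41 matrix glycoprotein and proteoglycan genes 9 were higher and 7 lower (9 and 4 in the mixed-sex pools). Cyr61, a matricellular protein that is also a target of YAP and SRF, was at 734 and 661 CPM in WT and at 327 and 408 CPM in KO pools (-0.92 ± 0.14, adjusted p = 0.00606). Thbs2, Vcan and Postn, matrix proteins of activated fibroblasts, fell by 0.80, 0.86 and 0.90, and Has2, a hyaluronan synthase, by 1.40. Podn, a small leucine-rich proteoglycan, was at 19.6 and 22.8 CPM in WT and at 52.8 and 46.3 CPM in KO pools (1.22 ± 0.09, adjusted p = 0.000548), and its relatives Fmod (0.68) and Dcn (0.58) were higher too. Inhba and Cyr61 were not called in the mixed-sex pools (adjusted p = 0.052 and 0.0528).

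Collagens and proteases were mixed. Of 37 collagen genes 6 were higher and 3 lower (3 and 3 in the mixed-sex pools), with Col28a1, a collagen best known from peripheral nerve, at 170 and 186 CPM in WT and 391 and 308 CPM in KO pools (0.97 ± 0.10, adjusted p = 0.00179), and Col12a1, which decorates fibrils and was lower together with Col11a1 (-1.16) and the nearly silent Col19a1, at 3356 and 2766 CPM in WT and 1991 and 2428 CPM in KO pools (-0.47). Col6a6 was at 6.3 and 8.1 CPM in WT and at 43.8 and 17.4 CPM in KO pools (2.08 ± 0.42, adjusted p = 0.0132), its KO pools lying far apart. Of 35 protease and inhibitor genes 8 were higher and 3 lower (4 and 1 in the mixed-sex pools), with Mmp3, stromelysin, at 25.5 and 60.1 CPM in WT and 137 and 111 CPM in KO pools (1.53 ± 0.30, adjusted p = 0.0128). Acta2, smooth muscle actin, was at 2431 and 1771 CPM in WT and 1192 and 1847 CPM in KO pools, which overlapped (-0.47, adjusted p = 0.229). Of 18 smooth muscle and myofibroblast genes 4 were higher, among them the pericyte genes Rgs5 (1.28) and Abcc9 (1.25), and 1, Myocd, a smooth muscle coactivator, was lower (-0.64).

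Progenitor and lineage markers were called in both directions, with 27.3% of the progenitor genes called against 20.7% of all genes tested. Of 22 mesenchymal progenitor genes 3 were higher and 3 lower: Cd34 (51 and 75.3 CPM in WT, 109 and 110 CPM in KO, 0.80), Ly6a (0.53) and Pdgfra (0.30) were higher, and Nes (-0.66), Prrx1 (-0.41) and Cd44, the hyaluronan receptor (308 and 279 CPM in WT, 188 and 224 CPM in KO, -0.51), were lower. Ncam1, a cell adhesion molecule, was at 90.9 and 113 CPM in WT and at 30.1 and 44.5 CPM in KO pools (-1.45 ± 0.17, adjusted p = 0.00268). Of 15 tested osteogenic and chondrogenic genes 2 were higher, 3 lower and 10 not called. The list summed to 498.7 and 472.5 CPM in WT and to 883.3 and 585.1 CPM in KO pools. Spp1 alone was at 384 and 339 CPM in WT and at 786 and 470 CPM in KO pools, a change of similar size. The lower members named next went against the direction of the sums. Among the lower members, Sp7, the osteoblast transcription factor osterix, was at 1.95 and 2.4 CPM in WT and at 0.40 and 0.50 CPM in KO pools (-2.26 ± 0.28, adjusted p = 0.00312). Runx2, which acts before it, was lower too (-0.82). Of 23 adipogenic and adipocyte genes 8 were higher and 2 lower, against 4 higher and none lower in the mixed-sex pools. Lipe, hormone-sensitive lipase, was at 13.2 and 15.7 CPM in WT and at 26.2 and 42.1 CPM in KO pools (1.24 ± 0.25, adjusted p = 0.0133), and Pnpla2, the other main lipase of fat stores, was higher (0.87), while Adipoq was at 13.4 and 12.2 CPM in WT and 16 and 44.1 CPM in KO pools and was not called (1.23, adjusted p = 0.117). The second KO pool was the highest for Lipe, Adipoq and Cfd alike. Of 26 imprinted growth genes 9 were lower and 3 higher (5 and 1 in the mixed-sex pools), with Peg10 (-0.995), Rian (-0.98) and H19 (-0.85) lower and Cdkn1c, a growth inhibitor, higher (1.04). Of 24 Hox genes 4 were lower and 1 higher, Hoxb9 by the largest margin of the lower ones (-2.02 ± 0.37, adjusted p = 0.00974), but in the mixed-sex pools no Hox gene was called and Hoxb9 had an adjusted p of 0.10. The share of Hox genes called, 20.8%, was near that of all genes tested (20.7%). Hmga2, a chromatin protein of growing mesenchyme, was lower (-1.24).

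Growth factors were more often higher than lower, with 9 of 39 higher and 3 lower (30.8% called, against 20.7% of all genes tested). Apln, the vascular peptide apelin, was at 15.9 and 20.1 CPM in WT and at 41.2 and 40.5 CPM in KO pools (1.18 ± 0.10, adjusted p = 0.000828). Igfbp2, which binds insulin-like growth factors, was at 323 and 287 CPM in WT and at 564 and 493 CPM in KO pools (0.79 ± 0.11, adjusted p = 0.00382). The KO pools of both genes were close to each other and above WT. The lower members included the neurotrophin Bdnf (-0.74) and the epithelial growth factor Fgf7 (-0.42). Wnt pathway genes were called at 24.2%, near the share of all genes tested. Of 33 Wnt pathway genes (1 higher and 3 lower in the mixed-sex pools) 5 were higher, among them the secreted modulators Sfrp2 and Rspo1 (0.75 each), and 3 lower, among them the ligand Wnt5a (-0.30).

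Redox genes changed in both directions. Of 28 glutathione and oxidative stress genes 7 were higher and 7 lower (4 and 5 in the mixed-sex pools). Nqo1, a quinone reductase and a standard target of NRF2, was at 70.6 and 84.1 CPM in WT and at 17.4 and 23.4 CPM in KO pools (-1.92 ± 0.14, adjusted p = 0.00049). Slc7a11, the cystine transporter that feeds glutathione synthesis, was at 22.9 and 19.5 CPM in WT and at 8.19 and 11.3 CPM in KO pools (-1.12 ± 0.15, adjusted p = 0.00412). The KO pools had the lowest levels of both genes. The other lower members were Gsta4 (-0.59), Gclm (-0.47), Srxn1 (-0.37), Txnrd1 (-0.35) and Gpx8 (-0.26), of which Gclm, Srxn1 and Txnrd1 are NRF2 targets too, but Hmox1, another NRF2 target, was higher (0.48), as were the glutathione transferase genes Gstt1 (0.68) and Gstp2 (0.69). The metallothionein genes Mt1 (22.1 and 32.8 CPM in WT, 75.8 and 61.6 CPM in KO, 1.32 ± 0.16, adjusted p = 0.00312) and Mt2 (1.59), which bind zinc, were higher. Of 29 glycolysis and hypoxia genes 9 were higher and none lower (5 and none in the mixed-sex pools), with Epas1 (0.65), Ndrg1 (0.52) and Pfkl (0.46) among them, whereas 36 respiratory chain genes had 2 higher and 3 lower and a median of -0.02.

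Some of the largest differences lay outside these programs. Tg, thyroglobulin (chr15:66670753-66850721, plus strand), was at 1.15 and 0.85 CPM in WT and at 69.5 and 77.9 CPM in KO pools (6.19 ± 0.13, adjusted p = 2.25e-07). Vcp-rs, an X-linked sequence related to Vcp (chrX:104345829-104348234, minus strand), was at 80 and 85.5 CPM in WT and at 4.55 and 5.3 CPM in KO pools (-4.07 ± 0.09, adjusted p = 2.25e-07), while Vcp itself was not called (0.06, adjusted p = 0.465). The ribosomal pseudogene Rps13-ps1 (chr8:87047689-87048226) had 2 scaled counts over both WT pools and 1114 over both KO pools, which puts the ratio at 557 (counting interval 154 to 4610), and Rps13 was not called (-0.07). Rps15a-ps8 had no count in WT and 5 and 5.05 CPM in KO pools, at least 33.5-fold higher, and Rps15a-ps7 was higher as well (4.48), whereas Rps15a was slightly lower (-0.25, adjusted p = 0.0169). Tg, Vcp-rs and the 3 pseudogenes separated the genotypes in both pools, with and without UTP, and reads of a pseudogene and its parent gene can be misassigned, so their values are uncertain. The parent genes Rps13 and Rps15a lie on the chromosome of P2ry2, chromosome 7, 15321 and 17103 kb from its start. Whether that position bears on the pseudogene reads was not tested. Slco4a1, an organic anion transporter (1.9 and 1.9 CPM in WT, 11.2 and 12.1 CPM in KO, 2.61 ± 0.19, adjusted p = 0.000499), Gldn, gliomedin (-2.17), Cd38, an NAD-consuming enzyme (-1.86), Hhip, a hedgehog antagonist (-2.68), and Agtr2, the angiotensin type 2 receptor (3.34), were others with large differences.

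Genes around P2ry2 itself were examined because a knockout line can keep a stretch of the donor strain's chromosome beside the targeted gene. Of 133 tested genes whose start lies within 5 Mb of the start of P2ry2 on chromosome 7, 49 were called (36.8%, 26 higher and 23 lower), against 3287 of 16095 on other chromosomes (20.4%). Of the 133, 15 were called at 2-fold or more (11.3%), against 2.94% on other chromosomes. The share was 45.9% within 1 Mb (17 of 37), 17.1% from 1 to 2 Mb (6 of 35), 42.6% from 2 to 5 Mb (26 of 61) and 23.1% from 5 to 10 Mb (12 of 52), so it did not decline steadily with distance. In windows of 5 Mb, 26 of 79 genes (32.9%) were called in the window centered on P2ry2 and 20 of 41 (48.8%) in the next one after it. Farther along chromosome 7, the highest shares in windows of at least 20 genes were lower than the latter. They were 16 of 37 (43.2%) 65 Mb before and 37 of 96 (38.5%) 40 Mb after P2ry2. At 2-fold or more, 7 of 79, 9 of 41, 3 of 37 and 9 of 96 genes were called in these windows, in that order. The share within 5 Mb was 18.8% when the 4 untreated libraries were fitted alone (7.07% of all genes tested), 17.4% in the mixed-sex pools (8.67% on other chromosomes) and 31.6% between the UTP-treated pools (17.3% on other chromosomes).

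**Figure D4:**
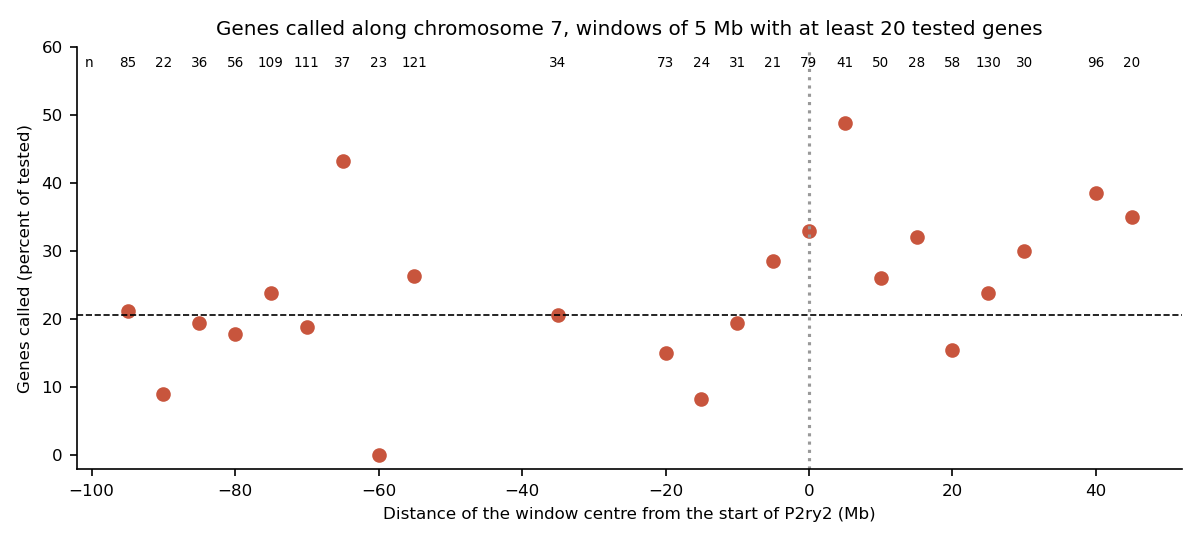
Percent of tested genes called between untreated P2Y2 KO and WT pools in 5 Mb windows of chromosome 7 against the distance of the window from the start of P2ry2 (dotted line), with the number of tested genes on top, for windows with at least 20 of them. The dashed line is the share of all tested genes, 20.7%. The window centered on P2ry2 (32.9%) and the next one (48.8%) lie above the line, and so do windows 65 Mb before and 40 Mb after.

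Near P2ry2, Ucp2, a mitochondrial carrier 520 kb from it (chr7:100493337-100502020), was at 106 and 88.8 CPM in WT and at 314 and 300.4 CPM in KO pools (1.66 ± 0.09, adjusted p = 9.25e-05). Trim12a and Trim30d, of a cluster of antiviral TRIM genes, were at 11.5 and 11.6 CPM and at 16.7 and 13.1 CPM in WT and at 1.25 and 1.5 CPM and at 1.1 and 2.05 CPM in KO pools (-3.07 ± 0.23 and -3.24 ± 0.36, adjusted p = 0.000499 and 0.00222). Trim5 was lower too (-1.76) but Trim34b was higher (2.61), and as these genes are close copies their reads are uncertain. Tpbgl was higher (4.25 and 4.75 CPM in WT, 13.3 and 11.1 CPM in KO, 1.44), and Alg8, a glycosylation enzyme, was lower (26.9 and 27.8 CPM in WT, 15.3 and 13.9 CPM in KO, -0.91). Rrm1, the large subunit of ribonucleotide reductase and a cell cycle gene, also lies in this stretch, 1429 kb from P2ry2 (526 and 542 CPM in WT, 368 and 370 CPM in KO, -0.54 ± 0.05, adjusted p = 0.00158). In all of these genes the KO pools lay apart from the WT pools. Of 23 genes known to vary between mouse strains, 5 were higher and 6 lower (none and 6 in the mixed-sex pools), and Ifi202b had 23 scaled counts in WT and none in KO pools, at least 3.83-fold lower. Genotype and any such strain difference cannot be told apart in these pools.

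With UTP for 7 days, the same genotypes differed in 3053 of 17529 genes (17.4%). Fitted apart, the untreated pools gave 1239 calls and the UTP-treated pools 4202 calls (24% of tested genes), and 1074 genes were called in both with the same direction, 86.7% of the former and 25.6% of the latter, with none in opposite directions. The first KO pool had almost no Xist both without and with UTP (0.10 and 0.15 CPM). Same-numbered KO pools without and with UTP deviated together (0.45), unlike the WT pools (0.03). The sources do not say whether they shared mice, so the UTP-treated pools may not be an independent comparison. Egr1 (-2.44), Fos (-2.42), Nqo1 (-2.20), Tg (5.79), Ucp2 (2.06), H2-K1 (1.07) and C4b (1.44) had differences between the UTP-treated pools in the same direction. The test of whether the genotype difference itself changed with UTP called no gene with edgeR. In that test 922 of the 17529 genes had an unadjusted p under 0.05, near the share that this threshold passes when nothing differs. In the UTP-treated pools 24 of the 32 macrophage identity genes were higher and none lower, and Csf1r was called there (1.12, adjusted p = 0.00678).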

How the data were processed

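Poly(A) RNA from 8 pools of cultured cADSC (WT and P2Y2 KO, untreated or with UTP, 2 pools each) was sequenced as paired reads of 100 bases with a stranded kit. Per the labels and the methods, Trimmomatic was used for trimming and STAR for mapping against GRCm38.p4 (mm10), and the authors obtained gene counts from HTSeq with Ensembl release 87; tool versions and the strand setting are not given in the sources used here, so reads of overlapping and antisense genes may be shared. The deposited values are estimated counts: gene counts that the authors had scaled with 1 factor per library to nearly equal totals and written as whole numbers, so the original depth is unknown. Intervals and floors cover counting error only. Both tables were joined on gene ID, and no column of other samples was present.

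Genes above 0.5 CPM in at least 2 libraries were tested with edgeR 4.0.16 (R 4.3.3), TMM normalization, 4 group means over all 8 libraries and quasi-likelihood F tests, with Benjamini-Hochberg adjustment over all 17529 genes at 0.05. Standard errors are the log2 fold change divided by the square root of F. DESeq2 1.42.0 and limma 3.58.1 were alternatives, with library size scaling, other minimums, a replicate block, a Y-linked covariate, the untreated libraries alone and each library left out. The script was checked on simulated counts. Gene positions came from GENCODE M21 (GRCm38) and promoters from RefSeq (GRCm38.p6). Groups were taken from the labels. The lists, the comparison and the rule for named genes (list members plus the largest changes and genes near P2ry2) were chosen with earlier results of these data known.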

Additional observations from a re-analysis of the deposited data

How the results depend on the processing

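The count of 3628 genes (1842 higher, 1786 lower) was within 1.5 times under library size scaling (3608), limma (3644 and 3628 at pseudocounts 0.5 and 1), a minimum of 2 CPM (3473) and no minimum (4234). It was 2175 (1186 higher, 989 lower) with DESeq2, 2218 (1154 and 1064) with the Y-linked level as a covariate, 1239 (702 and 537) with the 4 untreated libraries alone, 1515 (902 and 613) in the mixed-sex pools, 541 (376 and 165) at 2-fold or more, and 928 (643 and 285) by a fold rule without a test. Leaving out each replicate in turn gave 720 to 3984 calls (440 to 2160 higher, 280 to 1824 lower): 720 without KO replicate 1, 2118 without KO replicate 2, 2859 without WT replicate 1, 2234 and 2231 without either WT pool with UTP. Fits that leave out libraries hold fewer samples, and the cause of the other differences was not tested.

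The replicate block gave 3294 calls (1723 higher, 1571 lower). Replicate numbers did not pair WT with KO pools, whose same-numbered deviations correlated at -0.09 across genes (-0.10 with UTP), whereas KO pools and KO pools with UTP of the same number deviated together (0.45). With the block 25 of the 331 genes open to naming lost their call and 6 gained one.

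Called genes near P2ry2 numbered 17, 23, 61 and 88 within 1, 2, 10 and 20 Mb. The share called within 5 Mb (36.8%) was 18.8% with the untreated libraries alone (7.07% of all tested genes), 23.3% with DESeq2 (12.4%), 20.3% with the Y-linked covariate (12.7%), 17.4% in the mixed-sex pools (8.74%), 22.8% with no minimum (13.6%), 15% by the fold rule (5.29%) and 11.3% at 2-fold or more (3.09%), and 12% (4.13%, without KO replicate 1) to 40.2% with a replicate left out. The share within 10 Mb (33%) was 16.2%, 20%, 18.9%, 15.4%, 19.3%, 13.5% and 9.19% in the same order, and 10.9% to 33.2% with a replicate left out.

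Signs turned for Msln (-0.46 with the Y-linked covariate) and for the medians of mesothelial genes (-0.146 with that covariate, -0.0629 in the mixed-sex pools), of sex-linked genes (-0.40 with that covariate) and of T and NK cell genes (-0.00844 without KO replicate 1, 0.431 without WT replicate 1). Medians that started near 0 also turned in other lists, such as smooth muscle (-0.19, and 0.24 in the mixed-sex pools), nucleotide release and breakdown (-0.08, and 0.19 without WT replicate 2), strain-variable genes (0.09, and -0.18 without KO replicate 2) and matrix glycoproteins (0.01, and -0.14 without KO replicate 2). In the mixed-sex pools 130 of 328 named genes lost their call and 8 gained one, with DESeq2 61 and 2 of 331, and without KO replicate 1 166 of 329 lost it. With 2 pools per genotype and scaled counts, small changes and genes near 0.15 CPM are poorly resolved.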
